A study of Drosophila melanogaster with 2 samples.

Results

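Binding of Hr39 was examined at 32 genes of autophagy and of the fusion of autophagosomes with lysosomes, out of 13945 protein-coding genes on the 6 main arms of the *Drosophila melanogaster* genome. The genes were chosen by name, as known components of the autophagy machinery. All 32 were found in the annotation. Vps34 is listed there as Pi3K59F. The chromatin came from whole animals at the white prepupa stage, males and females together, of the transgenic strain Hr39-RC-GFP. This strain stably expresses the NR5-type nuclear receptor Hr39 with GFP at its C terminus, and the DNA was recovered with an antibody to GFP. The age of the animals is given as unknown. The samples form 1 group of 2 biological replicates, numbered 1 and 3, with the same genotype and stage. There was no second condition. A control from untagged animals was not analysed here, so signal that depends on Hr39 was not told apart from other signal. Whole animals mix all tissues, so binding in few cells and weak binding in many cannot be told apart. Coordinates are on dm6.

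Autophagy encloses part of the cytoplasm in a double membrane, the autophagosome, which then fuses with a lysosome. The Atg1 kinase complex starts the process, the Vps34 lipid kinase complex marks the membrane with a phosphoinositide, Atg9, Atg2 and the Atg18 proteins bring and bind lipid, and a pair of ubiquitin-like conjugation reactions attach Atg8 to the growing membrane. SNARE proteins and the HOPS tethering complex then join autophagosome and lysosome. In flies, the rise of ecdysone at the end of larval life is known to induce autophagy in the larval fat body and to precede the autophagic removal of larval midgut and salivary gland.

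The sequences within 50 bp of the summits that carry the results are shown first. They are the strongest promoter summits of the list (Atg17, Atg18a and Atg2), the strongest intronic summits (Atg5 and Atg1), and the other summits with a match to any of 5 motifs that were searched. All are given 5′ to 3′ on the plus strand, read from the RefSeq Release 6 genome assembly that has the dm6 coordinates. Capitals mark motif matches on either strand. A sequence in lower case throughout has none.
Atg17 promoter, stronger summit (chr3R:5669374-5669474, GC 34.7%): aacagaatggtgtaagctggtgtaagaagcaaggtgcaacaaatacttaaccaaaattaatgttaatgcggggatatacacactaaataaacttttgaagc
Atg17 promoter, weaker summit (chr3R:5669598-5669698, GC 41.6%): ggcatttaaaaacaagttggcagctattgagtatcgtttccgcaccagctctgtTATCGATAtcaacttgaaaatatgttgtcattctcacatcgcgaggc
Atg18a promoter, stronger summit (chr3L:8186839-8186939, GC 41.6%): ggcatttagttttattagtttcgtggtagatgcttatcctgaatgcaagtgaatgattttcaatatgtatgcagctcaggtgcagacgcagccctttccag
Atg2 promoter, stronger summit (chr3L:2774007-2774107, GC 29.7%): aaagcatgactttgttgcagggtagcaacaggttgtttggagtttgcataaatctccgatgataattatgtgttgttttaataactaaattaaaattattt
Atg5 intron (chrX:7319215-7319315, GC 29.7%): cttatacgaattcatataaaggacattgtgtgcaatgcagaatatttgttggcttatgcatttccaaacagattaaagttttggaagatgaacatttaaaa
Atg1 intron, strongest summit (chr3L:12793163-12793263, GC 20.8%): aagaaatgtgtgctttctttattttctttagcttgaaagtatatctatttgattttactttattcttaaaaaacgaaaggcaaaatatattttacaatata
Syx17 promoter (chr3L:4403316-4403416, GC 42.6%): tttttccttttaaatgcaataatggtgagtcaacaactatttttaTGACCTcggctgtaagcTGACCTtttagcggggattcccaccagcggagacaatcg
Atg6 promoter (chr3R:24050855-24050955, GC 48.5%): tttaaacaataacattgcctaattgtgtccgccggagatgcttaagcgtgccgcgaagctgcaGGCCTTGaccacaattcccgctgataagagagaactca

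The motifs were CAAGGNC (the core of the NR5 element), AGGTCA (the nuclear receptor half-site), TATCGATA (the DNA replication-related element of housekeeping promoters), CACGTG (the E-box of basic helix-loop-helix factors, which include Mitf, a regulator of lysosomal genes) and the repeat GAGAGAG. The NR5 core and the nuclear receptor half-site can overlap, but here they fell in different windows. Of the 22 optimal summits at the list's genes, 1 had CAAGGNC (4.55%), at Atg6. CAAGGNC lay at 2.06% of all 7426 optimal summits and 1.78% of those at promoters. TATCGATA lay at 1 summit, the weaker one of Atg17, against 1.23% of all optimal summits and 2.56% of those at promoters. AGGTCA also lay at 1 summit, that of Syx17, against 1.99% of all and 1.97% of those at promoters. The Syx17 window held it in a pair, both on the minus strand and 11 bases apart, the first ending on the summit base and the second starting 12 bp after it. Windows with 2 or more copies were rare, at 5 of 7426 summits (0.0673%). The pair was noticed after its sequence was seen. The E-box and the repeat were found at 0 of the 22 summits, against 0.633% and 0.929% of all. Of summits at promoters, 0.937% had the E-box and 1.16% the repeat. GC content averaged 33.6% ± 9.78 (SD over 22 summits) and ranged from 16.8% to 48.5%, against 33.9% ± 8.1 (SD over 7426 summits). Over the optimal summits at promoters, GC content averaged 35.3% ± 8.83 (SD over 3203 summits). A match describes these letters only and is not shown to be a binding site.

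The optimal set, by its name thresholded on the irreproducible discovery rate, held 7426 regions on the arms. What was compared for that rate is not stated, and not every region had a candidate nearby in both replicates. It placed a summit within 1000 bp of a transcription start site (TSS), called a promoter summit here, at 14 of the 32 genes (43.8%), against 25.2% of all protein-coding genes. Regions were ranked by the authors' signal value within each list, with rank 1 the highest. How the signal was scaled is not stated, so it is compared within a list only. By step, a promoter summit lay at 1 of 4 initiation genes, 3 of 5 nucleation genes, 3 of 4 membrane supply genes, 4 of 10 conjugation genes, 3 of 8 fusion genes and not at the cargo receptor ref(2)P. No test over the list is given, because its members were proposed with earlier results of these data known.

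**Figure D1:**
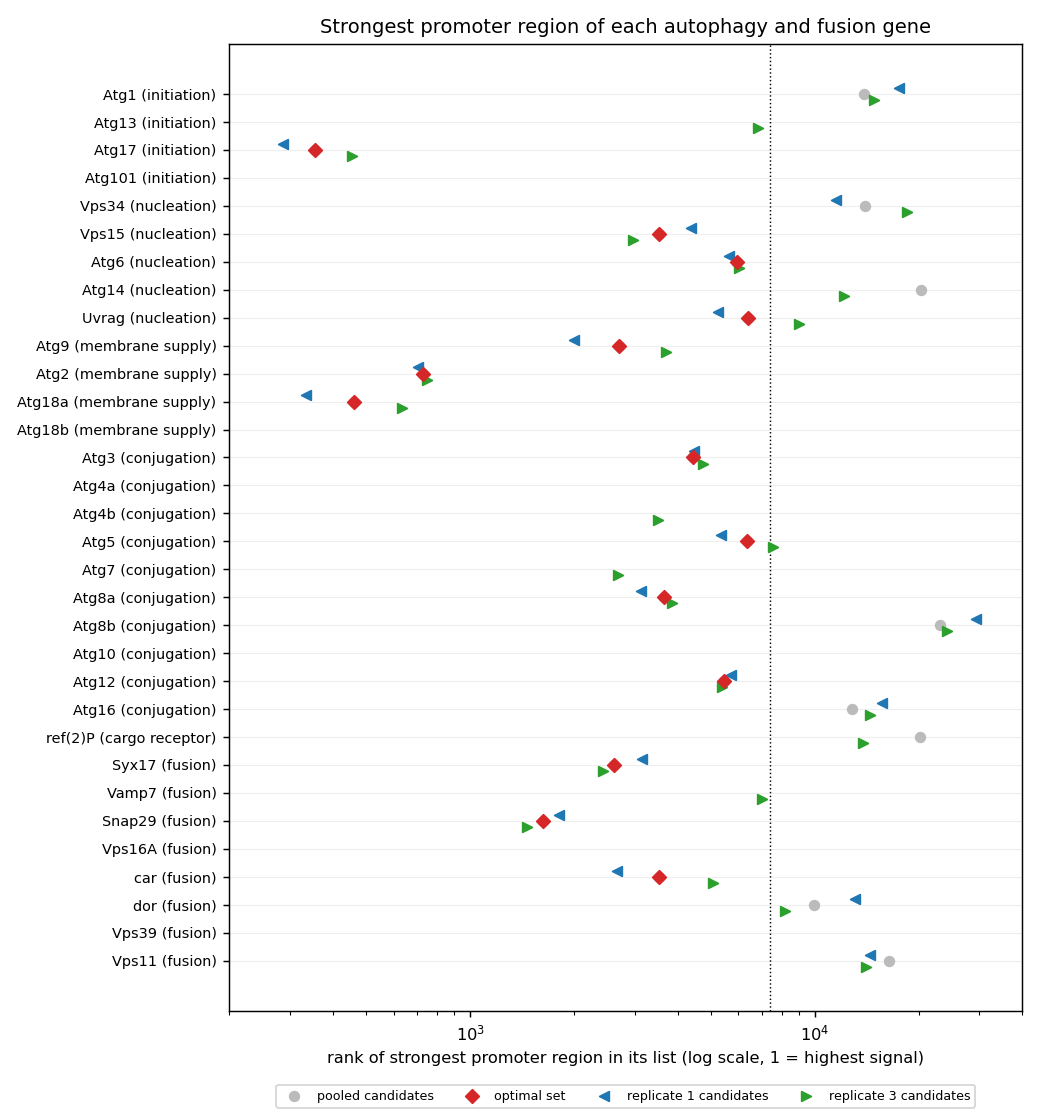
Rank of the strongest promoter region of each of the 32 genes (rows, with their step) in the optimal set, the pooled candidates and the candidates of replicates 1 and 3; the x axis is logarithmic and low ranks are the strongest. Atg17, Atg18a and Atg2 are the strongest, 14 genes have a point in the optimal set, Atg13, Atg4b, Atg7 and Vamp7 have a point for replicate 3 alone, and the dotted line marks rank 7426.

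Among initiation genes, Atg17 had the strongest promoter summit of the whole list. Atg17 is the fly FIP200 homologue, the scaffold of the Atg1 complex (3R, 5669713 to 5679930, plus strand). Its stronger summit, in region 5669233 to 5669726, had a signal of 919.0 at rank 354 in that set, 473.1 at rank 286 in replicate 1 and 442.8 at rank 453 in replicate 3. Both replicates placed it near the top of their lists, a little higher in replicate 1. A second summit in the same region, 65 bp from the TSS, ranked 4513, with rank 2339 in replicate 1 and 5509 in replicate 3. The stronger summit lay 289 bp upstream of Atg17 and only 90 bp from the TSS of its divergent neighbour Xe7, so it is nearer to Xe7 than to Atg17.

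Atg1, the kinase itself, showed the opposite layout: it had no optimal promoter summit and 3 in its introns. The gene spans 20688 bp on 3L (12784429 to 12805116, minus strand) and has a single annotated TSS. The strongest summit lay 11903 bp into the gene, in region 12793015 to 12793410. It had a signal of 304.0 at rank 2283 of the optimal regions, 115.2 at rank 2909 in replicate 1 and 186.0 at rank 1918 in replicate 3. The other intronic summits lay 5945 bp (rank 4053) and 1183 bp (rank 4884) from the TSS. The last is therefore just outside the 1000 bp limit, and with a limit of 2000 bp Atg1 counted as having a promoter summit. No other gene has a TSS within 1000 bp of any of these summits. At the promoter of Atg1 itself only weak candidates were listed, at ranks 13902 and 17609 of the pooled list. Atg1 is the longest gene of the list, and the part of its length in the number of summits was not tested.

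**Figure D2:**
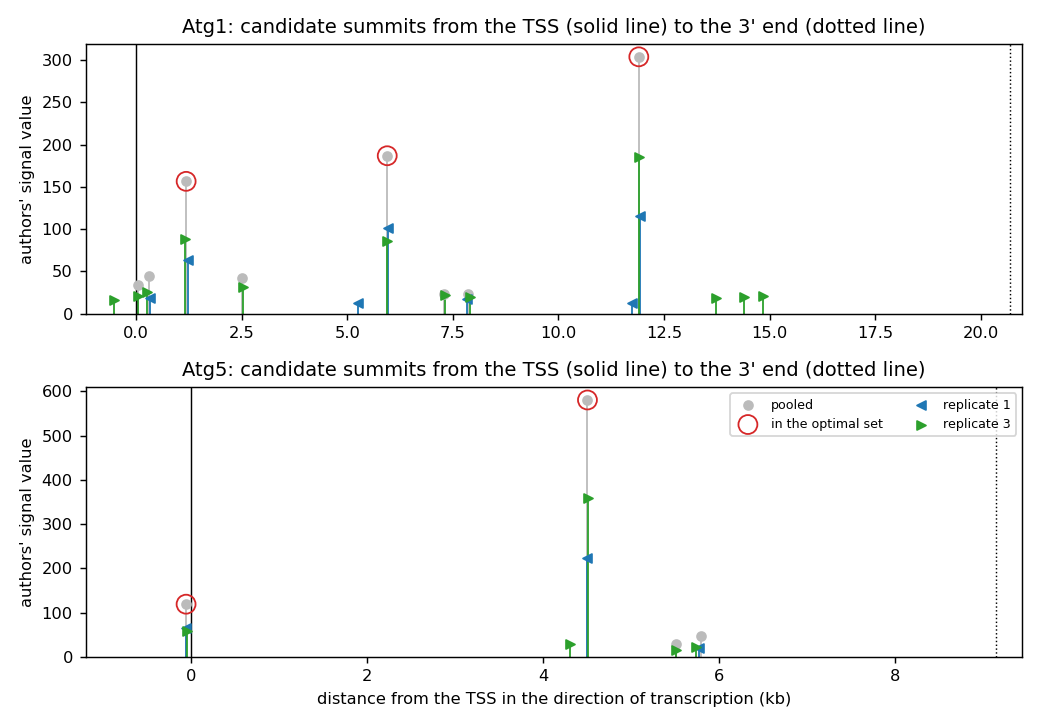
Candidate summits along Atg1 (top) and Atg5 (bottom), with distance from the TSS in kb on the x axis and the authors' signal value on the y axis; stems are pooled, replicate 1 and replicate 3 candidates, and open circles mark summits in the optimal set. The tallest summit of Atg1 lies 11903 bp and that of Atg5 4505 bp into the gene; pooled and replicate signals are not on a common scale.

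Atg13 and Atg101, the other subunits of the kinase complex, had no optimal summit. Atg13 (3R, 8349815 to 8352817) had a candidate in replicate 3 alone, 80 bp upstream of its TSS at rank 6824. Atg101 (X, 18791668 to 18793517) had no promoter candidate in any list, and its nearest optimal summit lay 1681 bp from its TSS.

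Of the nucleation genes, Vps15, Atg6 and Uvrag had a promoter summit, and the catalytic subunit Vps34 did not. Vps15, the regulatory kinase-like subunit (3R, 9240757 to 9245869, minus strand), had a summit 121 bp upstream of its TSS, with a signal of 211.7 at rank 3538 among optimal regions, 79.1 at rank 4377 in replicate 1 and 136.1 at rank 2964 in replicate 3. Atg6, the Beclin 1 homologue, had one at rank 5946. The TSS of Pisd, a phosphatidylserine decarboxylase gene on the opposite strand, lies 1 bp from that of Atg6. The summit lay 123 bp upstream of Atg6 and 122 bp inside Pisd. Uvrag, which defines the Vps34 complex of endosomes, had one 16 bp from its TSS, at rank 6399 in the optimal set. The Uvrag summit ranked 5239 in replicate 1 and 8991 in replicate 3. Vps34 had weak promoter candidates at rank 13954 of the pooled list, 11524 of replicate 1 and 18532 of replicate 3. Atg14, which directs the Vps34 complex to autophagosomes, had a pooled candidate at rank 20290, a pair at ranks 12180 and 17265 in replicate 3, and none in replicate 1.

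Of the membrane supply genes, Atg18a, Atg2 and Atg9 had a promoter summit, and Atg18b did not. Atg18a, a phosphoinositide-binding protein of the WIPI family (3L, 8186857 to 8191118, plus strand), had its stronger summit 32 bp inside the gene, in a non-coding part of an exon, in region 8186612 to 8187042. The signal was 821.1 at rank 459 of the optimal regions, 449.3 at rank 335 in replicate 1 and 369.1 at rank 636 in replicate 3. The region is shared with ERR, a nuclear receptor that regulates glycolytic metabolism, whose nearest TSS lay 218 bp from the summit on the other strand. A second summit, 920 bp upstream of Atg18a and 267 bp from a TSS of ERR, ranked 3578.

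Atg2, the lipid transfer protein of the growing membrane (3L, 2774338 to 2780677, plus strand), had a pair of summits 281 bp and 81 bp upstream. The farther and stronger, in region 2773914 to 2774208, had a signal of 639.5 at rank 728 among optimal regions, 306.0 at rank 706 in replicate 1 and 332.8 at rank 749 in replicate 3. It lay 50 bp from the TSS of the divergent gene CG12093, and the weaker (rank 2482) was nearer to Atg2. Atg9, the transmembrane protein of autophagy vesicles (2R, 16294400 to 16297232), had a summit 76 bp upstream at rank 2702. Its replicates differed in rank more than those of any other summit of the list: the candidate nearest to it ranked 2006 in replicate 1 and 6053 in replicate 3, a ratio of 3.02. In replicate 3 the strongest promoter candidate of Atg9 was another, 221 bp upstream at rank 3695. Atg18b (2L, 21212322 to 21220572) had no candidate at its promoter in any list, and its nearest pooled candidate lay 17881 bp from its TSS.

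Of the 10 conjugation genes, Atg3, Atg5, Atg8a and Atg12 had a promoter summit, at ranks from 3661 to 7169. Atg3, the E2-like enzyme of Atg8 (3L, 18748687 to 18750483), had a pair of summits at ranks 4436 and 7169, in overlapping regions. The stronger lay 28 bp inside Nufip and 348 bp upstream of Atg3. The candidates nearest to the weaker summit ranked 6736 in replicate 1 and 12561 in replicate 3, and may not be the same summit. Atg12, a ubiquitin-like protein, had a summit 121 bp upstream of its TSS at rank 5464. Atg5, its conjugation partner (X, 7314622 to 7323770, minus strand), had a promoter summit at rank 6362 and a far stronger one in an intron, 4505 bp from the TSS in region 7319105 to 7319439. The intronic summit had a signal of 580.5 at rank 844 of the optimal regions, 223.0 at rank 1176 in replicate 1 and 358.6 at rank 666 in replicate 3. It was the strongest summit of the list that no other gene's TSS approached within 1000 bp.

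Atg8a, the ubiquitin-like protein that coats autophagosomes (X, 10764878 to 10768338, minus strand), had a summit at an internal start site. Atg8a has 3 annotated TSSs. The optimal summit lay 134 bp upstream of the second from the 5′ end, within an intron of the longer transcripts, at rank 3661 among optimal regions, 3132 in replicate 1 and 3845 in replicate 3. At the 5′ end of the gene, which Atg8a shares with BTBD9, candidates were weaker, at rank 14168 of the pooled list, 12611 of replicate 1 and 14656 of replicate 3. Its paralogue Atg8b had candidates no stronger than rank 23079 of the pooled list. Atg16, the partner of the Atg12 to Atg5 conjugate, had pooled and replicate candidates at ranks 12798, 15625 and 14462. Atg7, the E1-like enzyme, and the protease Atg4b had candidates in replicate 3 alone, and the protease Atg4a and the E2-like enzyme Atg10 had none.

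ref(2)P, the fly p62 cargo receptor (2L, 19542468 to 19545548), had no optimal summit. Its candidates ranked 20118 in the pooled list and 13782 and 14290 in replicate 3, and replicate 1 had none.

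Of the fusion genes, the SNAREs Syx17 and Snap29 had the stronger summits. Syx17 sits on the autophagosome (3L, 4403487 to 4405168, plus strand). Its summit, 121 bp upstream in region 4403276 to 4403399, had a signal of 274.0 at rank 2605 of the optimal regions, 107.7 at rank 3151 in replicate 1 and 158.6 at rank 2436 in replicate 3. It is the summit with the paired AGGTCA shown above, and Syx17 was the only gene with an optimal promoter summit and no divergent partner. Snap29, its partner SNARE (2R, 23843483 to 23844763, minus strand), had a summit 100 bp upstream, with a signal of 382.7 at rank 1627 among optimal regions, 168.0 at rank 1804 in replicate 1 and 221.4 at rank 1463 in replicate 3. The TSS of CG5554 on the other strand lay 138 bp from it. The third SNARE, Vamp7, had a candidate in replicate 3 alone.

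Of the 5 HOPS subunits among the 32 genes, car had an optimal summit and dor, Vps11, Vps16A and Vps39 did not. car, the Vps33A homologue that binds SNAREs (X, 19566019 to 19569401, plus strand), had it 105 bp upstream, at rank 3523 of the optimal regions, 2663 in replicate 1 and 5061 in replicate 3. The summit is shared with Grip84, a gene of the gamma-tubulin complex, 150 bp away. dor, the Vps18 homologue, had the strongest pooled promoter candidate among the genes of the list without an optimal summit, 54 bp upstream at rank 9917 of the pooled list, 13091 of replicate 1 and 8204 of replicate 3. Vps11 had pooled candidates at ranks 16410 and 23132, and the replicates placed their summits apart, 12 bp and 558 bp downstream of its TSS. Vps16A and Vps39 had no promoter candidate in any list, with the nearest pooled candidates 15935 bp and 21277 bp away.

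**Figure D3:**
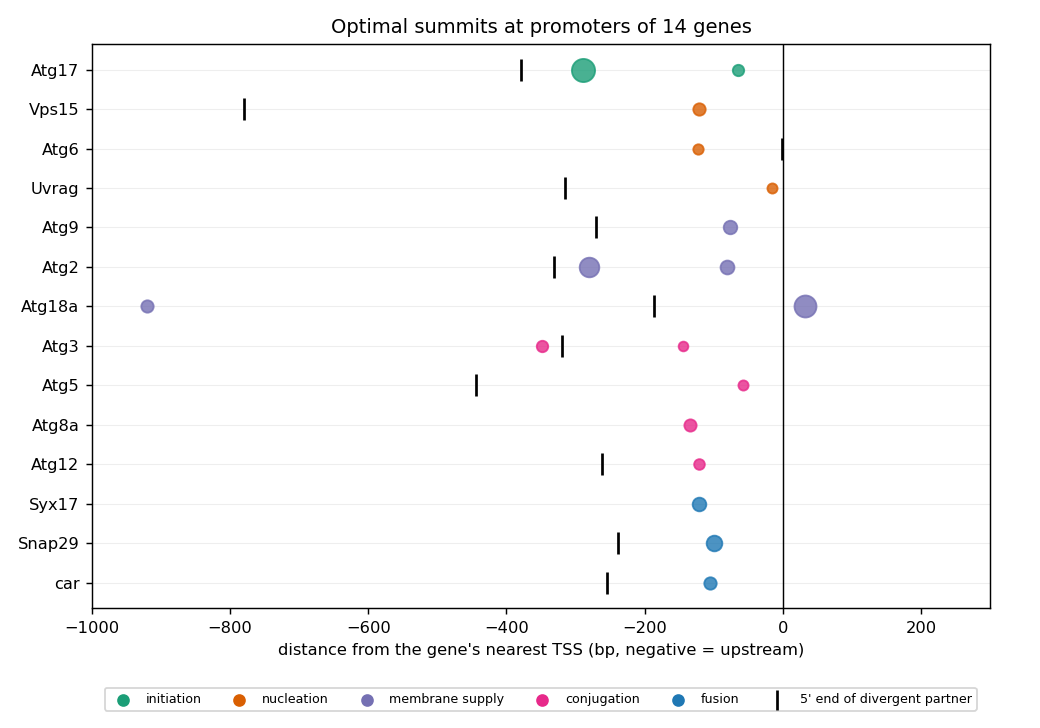
Position of the 18 optimal promoter summits of 14 genes relative to the nearest TSS of the gene (bp, negative is upstream); point area rises with the authors' signal and colour gives the step, and black bars give the 5′ end of the divergent partner where it lies within 1000 bp. All but the stronger summit of Atg18a lie upstream of the TSS, and those of Atg17 and Atg2 with the highest signal lie near the partner.

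The 18 promoter summits lay close to start sites and mostly near a neighbouring gene. Their median distance from the TSS of the list's gene was 121 bp, and 14 (77.8%) lay within 250 bp. Over the 3203 optimal summits at promoters of protein-coding genes, the median was 184 bp, and 59.4% lay within 250 bp. Those were measured from the nearest TSS of any protein-coding gene, so the measures differ. Upstream of the TSS of the list's gene lay 17 (94.4%). Of all, 76.4% lay upstream of the nearest TSS, again an unlike measure. Within 1000 bp of the TSS of another protein-coding gene lay 16 (88.9%), against 36.1% of all. The exceptions were the summits of Atg8a and Syx17. The list's summits were found through genes, and a shared summit can enter through either gene, while the 36.1% counts each summit once. By gene, 13 of the 14 with an optimal promoter summit had a divergent partner, against 1955 of the 3514 protein-coding genes with one. Sharing genes not named above were CG8420, 659 bp from the summit of Vps15, Drep4, 299 bp from that of Uvrag, CG7747, 194 bp from that of Atg9, Dok, 387 bp from the promoter summit of Atg5, and CG5645, 140 bp from that of Atg12. When each summit was given only to the protein-coding gene with the nearest TSS, the members kept 13 of the 18, and 13 genes still had one (40.6%, against 19.0% of all protein-coding genes). Atg6 was the gene that lost its summit, to Pisd.

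Divergent promoters were common in the list whether or not they held a summit. A protein-coding TSS lay on the other strand within 1000 bp upstream of the 5′ end at 23 of the 32 genes (71.9%), against 35.2% of all protein-coding genes. Among these 23, an optimal promoter summit lay at 13 (56.5%), against 39.8% of all genes with such a partner. Among the other 9, it lay at 1 (11.1%), against 17.3% of all genes without one. The share was thus above that of all genes for the 23 and below it for the 9. Both groups are small and neither difference was tested, because the genes were proposed with earlier results of these data known. How far promoter layout accounts for the share over the whole list was not tested.

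**Figure D4:**
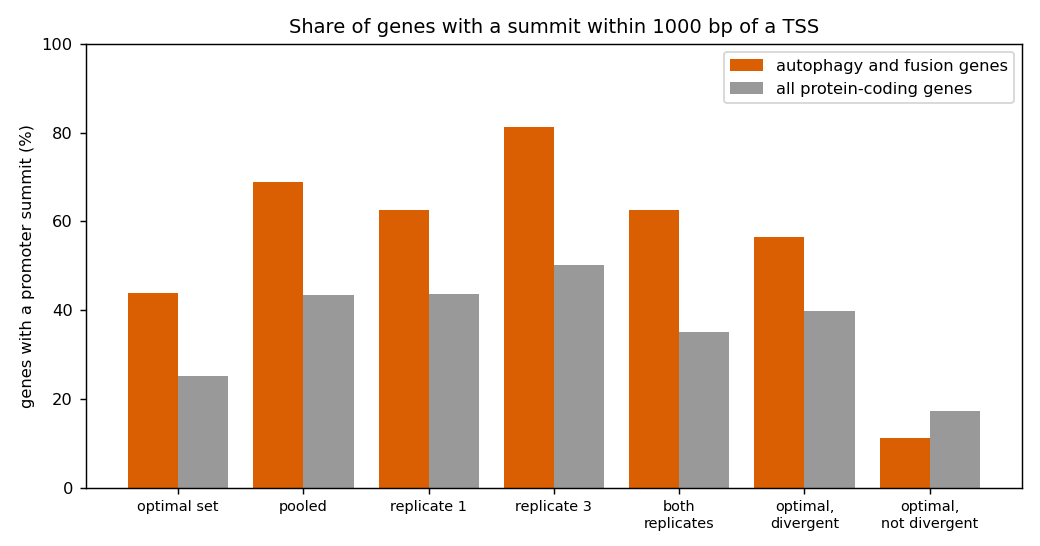
Percentage of genes with a summit within 1000 bp of a TSS, for the 32 autophagy and fusion genes (orange) and all protein-coding genes (grey), in each list, in both replicates, and in the optimal set by promoter type. The list is higher in every column except for genes without a divergent partner, where it is 11.1% (1 of 9 genes) against 17.3%.

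The median rank of the strongest promoter summit was 3530 over the 14 genes and 2648 over the 3514 protein-coding genes with one. Ranks 1 to 1000 held 3 of the 14, and 776 of the 3514. With gene bodies added, 15 of the 32 genes (46.9%) had an optimal summit, against 29.4% of all genes, and Atg1 was the gene added. The median length of the list's genes was 3232 bp, and that of all protein-coding genes 2166 bp.

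The longer candidate lists, which by their names take in background as well as peaks, held promoter summits at 22 of the 32 genes in the pooled list (68.8%, against 43.5% of all genes), 20 in replicate 1 (62.5%, against 43.6%) and 26 in replicate 3 (81.2%, against 50.1%). The 20 genes of replicate 1 were also found in replicate 3, so both replicates had 20 (against 35.1% of all genes). A further 6 were found in replicate 3 and not in replicate 1 (18.8%, against 15.1%), and 0 in replicate 1 alone (against 8.51%). Of the 32, 6 had no candidate in any of these lists (18.8%, against 40.5%): Atg101, Atg18b, Atg4a, Atg10, Vps16A and Vps39.

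Each of the 22 optimal summits of the list, 18 at promoters and 4 in introns, had a candidate within 100 bp in both replicates. At promoters this was 18 of 18 summits, against 91.3% of all 3203 promoter summits. No such share is given here for intronic summits. The optimal set was by its name already thresholded on the irreproducible discovery rate, so a high match is partly set by that selection. The median offset from the optimal summit was 13 bp in replicate 1, with a maximum of 97 bp, and 12 bp in replicate 3, with a maximum of 100 bp. The replicate candidates matched to the same optimal summit lay 103 bp apart at Atg6. At Atg3 they lay 177 bp and 171 bp apart, on either side of the optimal summit. Those at Atg3 need not be the same summit. Upstream of the Atg3 TSS, replicate 1 had candidates at 445 bp and 240 bp, and replicate 3 at 268 bp and 69 bp. The candidates at 240 bp and 268 bp were closer to each other than the matched ones. At the 18 promoter summits, the larger rank was a median of 1.39 times the smaller, against 1.24 times over all matched promoter summits. Replicate 1 had the better rank at 13 of the 22.

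**Figure D5:**
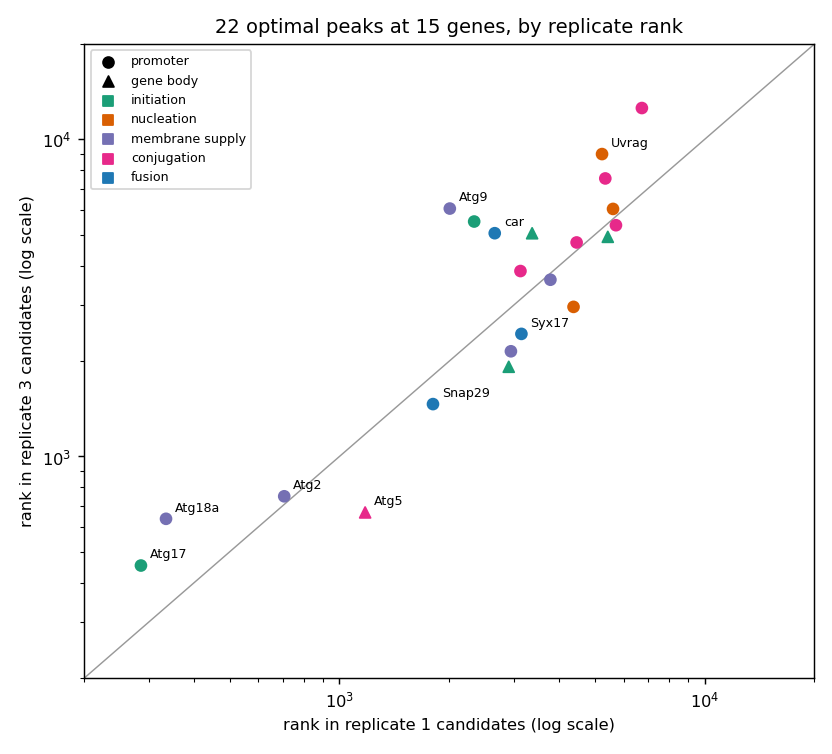
Rank in replicate 1 against rank in replicate 3 for the 22 optimal summits of 15 genes, both axes logarithmic, with the line of equal rank; circles are promoter summits, triangles intronic ones, and colours give the step. Atg17, Atg18a, Atg2 and Atg5 lead in both replicates, and Atg9 lies farthest above the line.

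At 4 genes a region of replicate 3 had no counterpart in the other lists. The promoters of Atg7 (rank 2681 of replicate 3, signal 147.8), Atg4b (rank 3497, 120.1), Atg13 (rank 6824, 63.8) and Vamp7 (rank 7030, 61.9) held one among its 7426 highest regions, yet the nearest pooled candidate lay between 4846 bp and 15577 bp away and the nearest candidate of replicate 1 between 4871 bp and 15631 bp away. Each summit lay between 80 bp and 165 bp upstream of its TSS, and all but that of Atg13 are shared with a divergent protein-coding gene (Sec6, Hibch and Sting). Atg7 also had a region of this kind within an intron, at rank 4129, with its summit 100 bp upstream of the TSS of CG5335. Over all protein-coding genes, 2.90% had such a promoter region. Across the whole list of replicate 3, 373 of its 7426 highest regions (5.02%) lay over 500 bp from any pooled candidate, and in replicate 1 113 did (1.52%). The limit of 500 bp was set after these regions were seen. Why the pooled list has no candidate there was not tested. Taken alone, the highest 7426 regions of replicate 3 gave 16 genes with a promoter summit, without Uvrag and Atg5, and those of replicate 1 gave the same 14 as the optimal set.

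Among 22 other genes of the pathway, chosen by name, 11 had an optimal promoter summit, against 25.2% of all protein-coding genes. Of 9 genes for tethering and membrane traffic, 6 had one: lt (the HOPS subunit Vps41), Rab7, its activators Mon1 and Ccz1, Rab2 and Arl8. Mon1 had the strongest, at rank 723 among optimal regions, 795 in replicate 1 and 702 in replicate 3. The Rab7 summit, at rank 3809, had no candidate of replicate 1 within 200 bp. Of 7 regulators, mTor (rank 822, with no candidate of replicate 3 within 200 bp), Rubicon and Vmp1 had one. Of 6 lysosomal proteins, the cathepsin genes CtsL1 and CtsB had one, and spin had a pair of intronic summits, the stronger at rank 1021. The CtsB summit, at rank 2666, ranked 2830 in replicate 3. In replicate 1 the nearest candidate to it lay 173 bp away, at rank 10674. At 2 of the 22, Ykt6 and Epg5, a promoter region was listed in replicate 3 alone, at ranks 1320 and 1465, against 2.90% of all protein-coding genes.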

How the data were processed

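Hr39-eGFP was precipitated from sonicated chromatin (size range 200 to 800 per the labels) of 2 replicates. The authors deposited, on dm6, a candidate region list per replicate, a pooled list and an optimal set (30000, 30000, 28773 and 7444 regions); per the deposited notes, candidate lists came from alignments and 1 further file. Neither peak caller nor aligner is stated in these sources, and the dm3 lists were not used. The signal value of each region is the authors' own and served only to rank regions within a list; depth is unknown. Summits came from the deposited offsets.

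Regions on 6 arms were ranked and set against TSSs of the Ensembl 115 annotation, without transposable elements, in Python 3.11.15 with numpy 2.4.6 and pandas 2.3.3. No region ran past the end of its arm in the reference. No summits of a list lay closer than 199 bp, and 313 pairs of optimal summits lay under 250 bp apart, each summit being counted. Motifs were searched on both strands in windows of 101 bp. The promoter calculation was checked against a direct count on simulated summits. The replicates are separate biological samples per the labels. The text names all 32 genes, genes sharing their summits, and the other pathway genes with an optimal promoter summit. Members and lists were chosen with earlier results of these data known. No p-values were computed. Alternatives were other TSS distances, 5′ ends alone, stronger regions alone, other matching distances and each replicate alone.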

Additional observations from a re-analysis of the deposited data

How the results depend on the processing

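Counts stayed within 1.5 times their values under most alternatives. In the optimal summits with signal above their median, 9 genes of the list had a promoter summit in place of 14 (Atg6, Uvrag, Atg3, Atg5 and Atg12 were lost), and 9 promoter summits were shared with another gene in place of 16. With a TSS distance of 250 bp, 8 were shared; fewer neighbouring start sites fall within the shorter distance. The 14 genes were the same at 250 bp, at 500 bp and with 5′ ends alone, and Atg1 and Atg101 were added at 2000 bp. With each replicate alone, the count was 14 to 16 for promoters, 15 to 18 with gene bodies and 16 to 18 for shared summits. Replicate 1 alone gave the same 14 genes, and replicate 3 alone lost Uvrag and Atg5 and added Atg13, Atg4b, Atg7 and Vamp7. Giving each summit to the nearest protein-coding TSS, an alternative chosen after the data were seen, left 13 genes. Of the 18 promoter summits, 14 had both replicates within 50 bp. No paired analysis was possible because there is 1 group. Peak lists hold no read counts, so a missing region does not show that binding was absent.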
